A study of Homo sapiens with 2 samples.

Results

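ARPC3, TMSB4X and TPT1 held 7 of the 647 peaks in the deposited acRIP-seq table of A549 cells, a human lung adenocarcinoma line, with 2 peaks on ARPC3, 2 on TMSB4X and 3 on TPT1. The table lists 490 genes. All rows carrying one of the 3 gene names were taken. The genes were chosen on earlier results of these data, including the difference between the libraries that the authors computed, so their place in the table supports nothing about them as a group. In acRIP-seq an antibody captures the RNA fragments that carry N4-acetylcytidine (ac4C), and peaks are the places where captured reads outnumber those of the input RNA.

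The experiment had 1 library of A549 cells without an edit (WT) and 1 library of a NAT10 knockout (NAT10-KO), a single homozygous clone made with CRISPR/Cas9 by a pair of guides at the fifth exon. NAT10 is the acetyltransferase that places ac4C on RNA. No other treatment separates the libraries in the labels. The deposited table holds no value for a single library. Its 3 columns on the difference between WT and NAT10-KO are the authors' own comparison and were not used here, so no change after knockout is given for any peak. All values below describe enrichment over input. Both sample titles name a RIP-Seq library and neither names an input, and which input was used is not given. The table does not say whether a peak was called in WT, in NAT10-KO or in both together. No value has a replicate or an error, and the read depth is unknown.

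Cells move by building branched actin networks at their edge. The Arp2/3 complex starts each branch, and ARPC3 is one of its subunits. Thymosin beta-4, the small peptide encoded by TMSB4X, holds actin monomers in reserve and so sets how many are free to polymerise. TPT1 encodes the translationally controlled tumour protein, an abundant protein that binds tubulin and takes part in growth and survival. TPT1 mRNA belongs to the class that starts with a pyrimidine tract (a TOP mRNA), together with those of ribosomal proteins and elongation factors. On mRNA, ac4C has been linked with stability and with translation.

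TMSB4X had the most enriched of the 7 peaks and 1 of the least enriched, at opposite ends of the gene. ARPC3 had 2 peaks of similar enrichment near its 3′ end. TPT1 had 1 peak in the coding sequence (CDS) and 2 less enriched ones in the 3′UTR. A peak was counted as past the fold when its enrichment over input was at least 2. This held for 4 of the 7 peaks, against 60.0% of all listed peaks, so the share among the 7 was close to the background. The median fold enrichment was 2.62 over the 7 peaks and 2.24 over all 647.

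**Figure D1:**
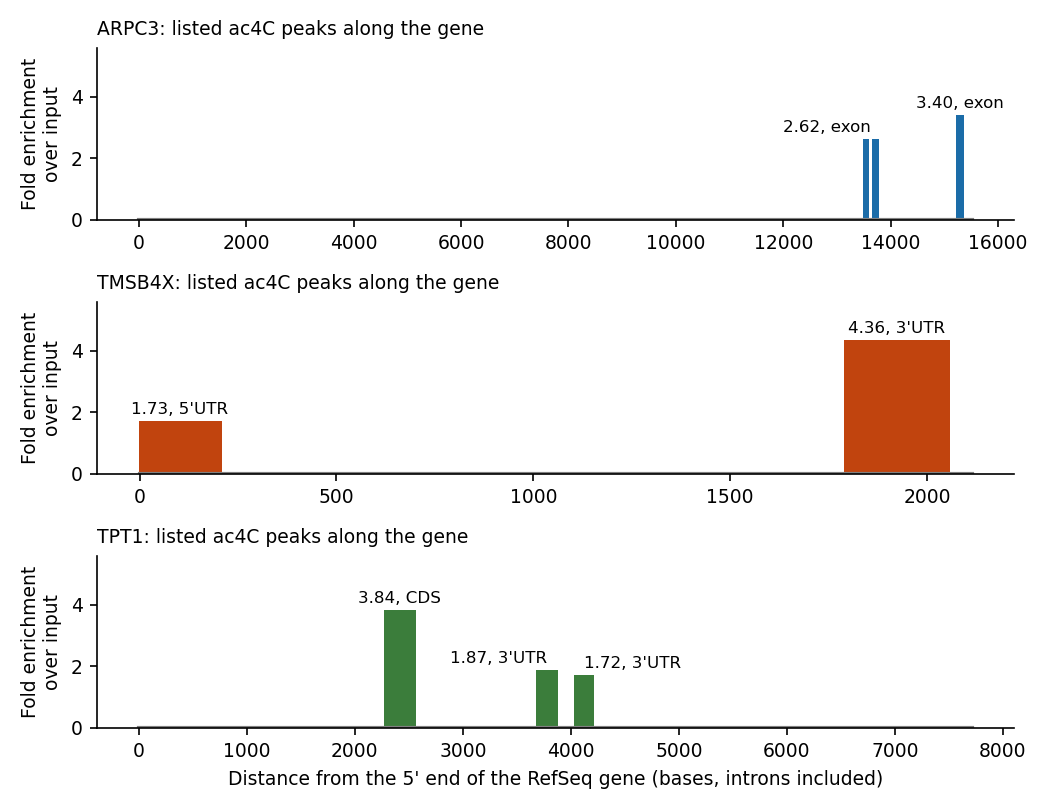
Listed ac4C peaks of ARPC3 (top), TMSB4X (middle) and TPT1 (bottom). The horizontal axis is the distance in bases from the 5′ end of the RefSeq gene, introns included, with a scale of its own in each panel, and bar height is the fold enrichment over input. The TMSB4X bars stand at both ends of the gene, the ARPC3 bars near the 3′ end, and the CDS bar of TPT1 is the tallest of its 3.

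The 5′ peak of TMSB4X (ENSG00000205542) lay on the plus strand of chromosome X from 12975108 to 12975317 (GRCh38) and was assigned to the 5′UTR. It started 2 bases before the first base of the RefSeq gene. The first 30 bases of this peak are shown because it was the 1 peak among the 7 that reached a transcript start. They run from chrX:12975108-12975137 on the plus strand of GRCh38.p14, taken from the RefSeq promoter table, and capitals mark cytosine, the base on which ac4C is placed.
TMSB4X 5′ peak: aCaaCtCggtggtggCCaCtgCgCagaCCa

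Cytosine made up 10 of these 30 bases. The promoter table reached 52 bases into the peak, of which 18 were cytosine. In the 50 bases after the annotated start, 34.0% were cytosine in TMSB4X, and the median over 35116 windows of the same length was 28.0%. A strict pattern of 4 CNN triplets in a row, with no base between them, was searched on both strands of those 50 bases, with overlapping matches allowed. TMSB4X had 0 matches on either strand. The pattern was present on the transcript strand in 25.7% of the 35116 windows and on the opposite strand in 34.8%. Its absence says only that these letters are not in this window, and neither triplets with bases between them nor the rest of the peak were searched. Of 456 listed peaks with such a window for their gene, 9 reached the first 50 bases.

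Enrichment at the 5′ peak of TMSB4X was 1.73-fold over input, with a log10 p of -25.2. It ranked 479 of 647 by fold enrichment. Only 5 listed peaks were assigned to a 5′UTR, and TMSB4X had the lowest enrichment of them. The next lowest was Z95331.1 with 2.11-fold enrichment, and the highest was MTRNR2L12, named after its value was seen, with 12.4-fold. The p placed the same peak much higher than the fold did: it ranked 156 of 647 by p.

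The 3′ peak of TMSB4X ran from 12976898 to 12977167 on chromosome X, was assigned to the 3′UTR, and ended 56 bases before the end of the RefSeq gene. Its enrichment was 4.36-fold, the highest of the 7 peaks, at rank 140 of 647 overall and rank 51 of the 214 peaks in 3′UTRs. Its log10 p was -444, rank 28 in the table, and its p is listed at 0, as for 31 peaks in all. The neighbours in enrichment among 3′UTR peaks were THSD7A with 4.61-fold above it and HSP90AA1 with 4.28-fold below it. Of all 3′UTR peaks, 66.4% were past the fold.

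The 2 peaks of TMSB4X lay 1580 bases apart on a gene of 2114 bases, introns included, and differed in enrichment by 2.52 times. Among the 71 other genes with exactly 2 listed peaks, the higher peak exceeded the lower by a median of 1.29 times, and 7 of the 71 differed by more than TMSB4X. TMSB4X was the 1 gene in the table with a peak in the 5′UTR and another in the 3′UTR. The 5′ peak was 210 bases long and the 3′ peak 270 bases, beside a median of 208 bases over all listed peaks.

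**Figure D2:**
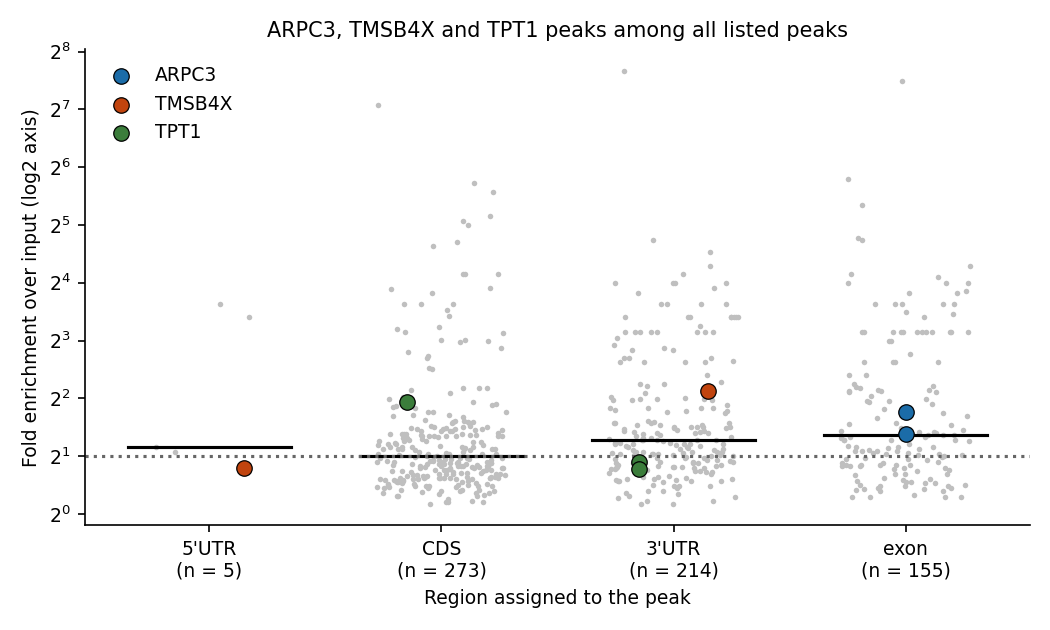
Fold enrichment over input (log2 axis) of all 647 listed peaks by assigned region. Each grey point is a peak of another gene, coloured points are the peaks of ARPC3, TMSB4X and TPT1, black bars are medians over all peaks of the region, and the dotted line marks 2-fold. The TPT1 peak in the CDS and the TMSB4X peak in the 3′UTR lie above their regional medians of 2.0 and 2.42, and both TPT1 peaks in the 3′UTR lie below.

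TPT1 (ENSG00000133112) is on chromosome 13, minus strand. Its CDS peak covered positions 45338618 to 45338917, a single block of 300 bases. The enrichment there was 3.84-fold with a log10 p of -96.0. It ranked 161 of all 647 peaks and 42 of the 273 CDS peaks. The regional median in the CDS was 2.0, and 50.2% of CDS peaks were past the fold. Next to it in enrichment within the CDS stood GOLGA4 with 3.85-fold and MT-ND6 with 3.81-fold.

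The middle peak of TPT1 ran from 45337299 to 45337509 and was assigned to the 3′UTR. Enrichment there was 1.87-fold with a log10 p of -53.8, rank 153 of the 214 peaks in 3′UTRs. The last 30 bases of this interval by coordinate, its 5′ end on the minus strand, overlapped SNORA31, a small nucleolar RNA of 130 bases annotated from 45337480 to 45337609. Whether reads of SNORA31 contributed to the peak was not tested. The third peak ran from 45336970 to 45337150, also in the 3′UTR, and had the lowest enrichment of the 7, 1.72-fold, with a log10 p of -8.06. It ranked 485 of 647 overall. Between the 2 peaks in the 3′UTR there were 148 bases without a listed peak.

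Enrichment along TPT1 was thus highest at the peak assigned to the CDS and lower at the 2 assigned to the 3′UTR. On the RefSeq gene of 7713 bases, introns included, the middles of these peaks stood at 31.3%, 49.0% and 53.5% of its length. Those assigned to the 3′UTR ended 3828 and 3499 bases before the 3′ end of that gene. The assigned regions are the authors' and were not checked against transcripts. The highest and lowest of the 3 TPT1 peaks differed by 2.23 times, while the 2 peaks in the 3′UTR differed by 1.09 times. Among the 18 other genes with exactly 3 listed peaks the median difference was 1.65 times, and 4 of the 18 exceeded that of TPT1. A stronger peak in the CDS than in the 3′UTR was about as common as the reverse: among the 30 genes with a listed peak in both regions, the highest CDS peak exceeded the highest 3′UTR peak in 14, TPT1 included. TMSB4X and TPT1 therefore had their strongest listed peaks in different regions.

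ARPC3 (ENSG00000111229) is encoded on the minus strand of chromosome 12, and the authors' table assigned both of its peaks to an exon without further division. The upstream peak, from 110436555 to 110436846, consisted of 2 blocks of 129 and 112 bases separated by a gap of 51 bases. It was the 1 peak among the 7 with more than 1 block. Gaps this short were rare in the table, with 4 of the 397 gaps between blocks at 51 bases or fewer and a median gap of 896 bases. The enrichment of the upstream peak was 2.62-fold with a log10 p of -12.1.

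The downstream peak of ARPC3, from 110434975 to 110435124, was a single block of 150 bases, the shortest of the 7, that ended 152 bases before the 3′ end of the RefSeq gene. Its enrichment was 3.40-fold with a log10 p of -10.6. Among the 155 exon peaks, where 67.7% were past the fold and the median was 2.57, it ranked 61 and the upstream peak ranked 75. Neighbouring exon peaks were those of MALAT1 with 3.51-fold and CALM2 with 3.35-fold around the downstream peak, and AC116366.3 with 2.64-fold and VMP1 with 2.59-fold around the upstream one.

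Both ARPC3 peaks fell in the last part of a gene of 15515 bases, introns included, with middles at 87.9% and 98.5% of its length. They differed in enrichment by 1.30 times, close to the median of 1.29 for other genes with 2 peaks, and 33 of those 71 genes differed by more. ARPC3 was the 1 gene of the 3 with every listed peak past the fold. Of all exon peaks, the region of both, 67.7% were past it. Among the 71 other genes with 2 peaks, 27 had them on both sides of the fold. How many had both past it was not counted. In enrichment the order of the strongest peaks was TMSB4X, TPT1 and ARPC3. Without replicates it cannot be said whether these 3 values differ beyond the error of the measurement.

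**Figure D3:**
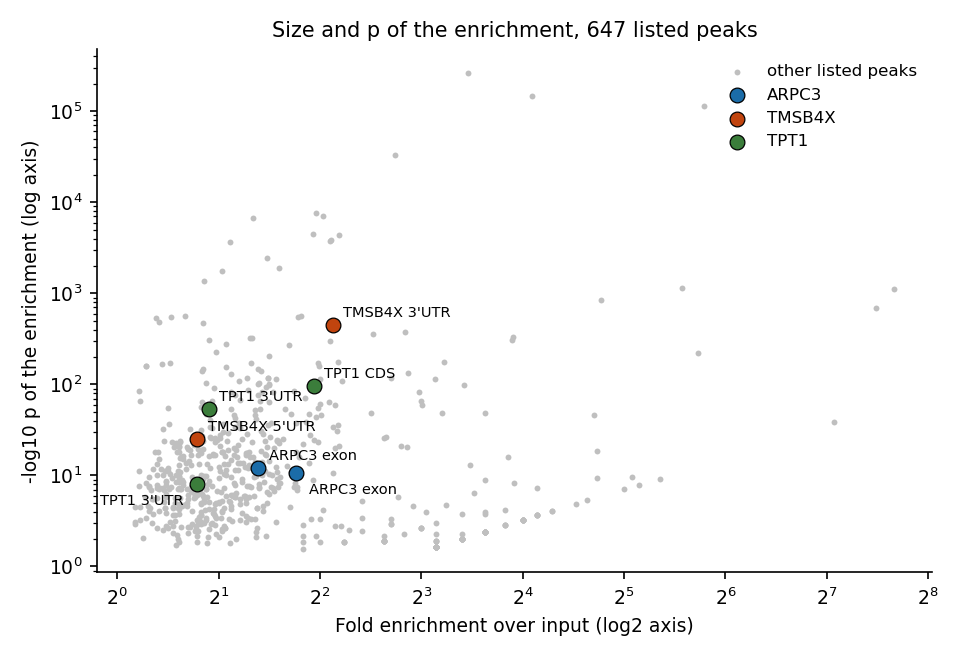
Fold enrichment over input (horizontal, log2 axis) against the -log10 p of the enrichment (vertical, log axis) for all 647 listed peaks. Grey points are other genes and coloured points are the 7 peaks of ARPC3, TMSB4X and TPT1. The 3′UTR peak of TMSB4X has the smallest p of the 7, with a log10 p of -444, and both ARPC3 peaks lie to the right of the TMSB4X 5′UTR peak but below it.

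Fold and p ordered the 7 peaks differently. The downstream ARPC3 peak was more enriched than the 5′ peak of TMSB4X, at 3.40-fold against 1.73-fold, but stood lower by p, at rank 281 against rank 156. The middle peak of TPT1 was at percentile 35.0 by fold and at 84.5 by p. At a given enrichment the p falls as reads accumulate. The reads behind each peak were not analysed, and the part of transcript abundance in these ranks was not tested. The adjusted p (FDR) of the enrichment was under 0.01 at all 7 peaks and at 70.5% of all listed peaks.

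Other genes of the actin machinery were taken from 4 lists, which leave out smooth muscle genes such as ACTG2 and MYH11. Together they hold 67 genes, of which 9 had a listed peak, ARPC3 and TMSB4X included. The share of all genes with a listed peak was not computed, so whether such counts are usual cannot be said. Of the 10 genes on a list of Arp2/3 subunits, ARPC3 was the 1 gene with a listed peak. Among 12 activators and partners of the complex, NCKAP1, a subunit of the WAVE regulatory complex, had 1 peak with 2.11-fold enrichment. Of 16 genes that bind actin monomers or filament ends, 3 had a peak besides TMSB4X. These were TWF1 (twinfilin) with 2 peaks of up to 2.99-fold, CAPZA1 (a capping protein subunit) with 2.41-fold, and DSTN (destrin, which severs filaments) with 2 peaks of 2.30-fold and 1.40-fold. Among 29 genes for actins, filament-associated proteins and motors, 3 had a peak. ANLN (anillin) had 3 peaks of 1.84-fold to 2.32-fold. RDX (radixin, which links actin to the membrane) had 2 peaks of 2.0-fold and 1.61-fold, the higher with a log10 p of only -2.12. ACTG1 (cytoplasmic gamma-actin) had 1 peak of 1.80-fold. A missing peak measures neither modification nor expression, since the level of these transcripts was not analysed here.

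Over the 4 actin lists, the 7 genes other than ARPC3 and TMSB4X had 12 peaks, at a median of 2.16-fold and at most 2.99-fold. Of the 12, 8 were past the fold, a share near the 60.0% of all listed peaks and the 66.4% of those in a 3′UTR. The strongest peaks of TMSB4X and ARPC3 were at 4.36-fold and 3.40-fold. Smooth muscle genes of the same machinery, outside these lists, reached far higher. The actin ACTG2 had a peak of 11.5-fold, the myosin light chain MYL9 12.4-fold, the actin-binding TAGLN up to 40.8-fold and the myosin heavy chain MYH11 up to 135-fold. The place of TMSB4X and ARPC3 among actin genes therefore depends on which genes a list holds. Of the 12 peaks, which come from 7 genes, 9 lay in a 3′UTR, as did the strongest TMSB4X peak. Over all listed peaks, 214 of 647 were assigned to a 3′UTR.

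Of 95 genes on a list of ribosomal proteins, elongation factors and other TOP mRNAs, 35 had a peak, TPT1 included. For this count too, no share over all genes was computed. The other 34 genes had 46 peaks, of which 17 were past the fold, with a median of 1.83. This is a smaller share than the 60.0% over all listed peaks. By its strongest peak TPT1 ranked behind NAP1L1 (a histone chaperone) with 9.23-fold, RPL22 with 4.44-fold, RPS20 with 4.04-fold and NPM1 (nucleophosmin) with 4.01-fold, and ahead of EIF3E with 3.14-fold. At the other end of the list were RPL23A with 1.16-fold, RPS4X with 1.22-fold, RPSA with 1.31-fold, and RPL15 and RACK1 with 1.33-fold each. Within the CDS, 8 of the other 18 peaks on this list were past the fold with a median of 1.95, beside 3.84 for TPT1. Over all CDS peaks the share was 50.2%, near that of these 18. Among exon peaks, 8 of the other 23 were past the fold, beside 67.7% of all exon peaks. Within the 3′UTR the other 5 peaks had a median of 1.64, beside 1.87 and 1.72 for TPT1. Of these 5, 1 was past the fold, beside 66.4% of all 3′UTR peaks.

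Each of the 3 genes has processed copies elsewhere in the genome that could take some of its reads. RefSeq lists 5 pseudogenes named after ARPC3, 8 after TMSB4X and 14 after TPT1. None of these had a listed peak, and 0 listed peaks overlapped one. How reads with several matches were assigned is not given in the sources used here, so the share of reads from these copies was not tested. No other listed peak overlapped any of the 7 peaks.

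The labelled cell type was set against marker genes, with the limit that a peak list shows pulled-down transcripts and not expression. Of 10 genes typical of lung epithelium or this line, KRT19, AKR1B10 and ALDH1A1 had peaks. These were 8 in all, 4 of them past the fold, the median being 1.80 and the highest 53.2 at KRT19. Of 9 smooth muscle genes, ACTG2, DES, MYH11, MYL9, SYNM, SYNPO2 and TAGLN had peaks. All 16 of these peaks were past the fold, the median being 20.4 and the highest 135. Over all listed peaks 60.0% were past the fold. The marker lists were chosen with earlier results of these data known, so these counts are no independent check of the cell type. None of the 5 fibroblast or 5 blood and immune genes had a peak. TMSB4X and ARPC3 are widely expressed, and whether RNA of other cells contributed to their peaks was not tested.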

How the data were processed

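The acRIP-seq libraries were 1 of WT and 1 of NAT10-KO A549 cells, grouped by their sample titles. The submitters' processing notes name STAR 2.7.10a and the build hg38. The peak caller and the annotation release are not given in the sources used here. The authors deposited 1 table of 647 peaks, which gives per peak a fold enrichment (the ratio of pull-down to input), its p-value, and the log10 of that p and of its FDR, handled here as a score. Other deposited columns give the peak's coordinates, region and gene. A further 3 columns hold the authors' log2 fold change between the libraries with its p and FDR. These were neither used nor compared. The table holds 0 columns of single libraries, so the depth is unknown.

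Start coordinates were taken as 0-based: read that way, 4 plus-strand peaks start on the first base of a RefSeq gene, and 0 plus-strand peaks do when read as 1-based. Positions are given counted from 1. Of 584 peaks with a RefSeq gene (GRCh38.p14) of the same symbol, 581 overlap it. Ranks, medians and counts past a fold of 2 were computed over all listed peaks with Python 3.11.15, numpy 2.4.6, pandas 2.3.3 and matplotlib 3.10.9, after the counting had been checked on simulated peaks. No test between conditions could be made.

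The genes, the 5 gene lists and the marker lists were chosen with earlier results of these data known. The text names every peak of ARPC3, TMSB4X and TPT1, every gene with a peak on lists with up to 10 such genes, the 5 highest and 5 lowest on longer lists, and the nearest peaks in enrichment within a region. TPT1 is among the 5 highest of its list, and EIF3E, the next gene below it, was named as well. Marker genes with a peak were also named. Likeness to other genes across samples was not computed, since no value per sample was used. Alternatives were other folds, an FDR limit, other backgrounds, peaks of 1 region and genomic spans. No genome sequence was used, so sequence under the other 6 peaks is not shown.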

Additional observations from a re-analysis of the deposited data

How the results depend on the processing

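Of 43 alternatives, 19 stayed within set limits. The limits were 1.5 times for a count, the 95% binomial interval for a share or percentile, and no change for a ratio or length. The interval takes the peaks as independent, though some share a gene, so it is a yardstick and measures no error of the experiment. The other 24 alternatives moved past the limits, as follows. At a fold of at least 1.5, all 7 peaks of the 3 genes, 86.4% of all listed peaks and 35 of 46 peaks on the translation list passed. At a fold of at least 3, 30.8% of all peaks, 6 on the translation list and 0 of 12 on the actin lists passed. At that fold 3 of the 7 passed, which is among the 19 that stayed within the limits. With 1 peak per gene, the highest, 66.1% of peaks were past the fold of 2. With smooth muscle genes left out, a setting chosen after seeing the data, the share was 59.0%, which is also among the 19.

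Percentiles in enrichment moved with the background. Among peaks of the same region, in place of all listed peaks, the upstream ARPC3 peak stood at 51.9 in place of 60.8, the downstream one at 61.0 in place of 72.1, the 5′ peak of TMSB4X at 10 in place of 25.7, and the TPT1 peaks at 84.8, 28.3 and 18.2 in place of 75.2, 35.0 and 25.0. Among protein-coding peaks the downstream ARPC3 peak stood at 76.0, the 3′ peak of TMSB4X at 82.0 in place of 78.4, and the CDS peak of TPT1 at 79.3. Ranked by the FDR of the enrichment, the downstream ARPC3 peak stood at 56.6, the TMSB4X peaks at 75.9 and 97.6, and the TPT1 peaks at 88.8, 84.5 and 48.1. Within 1 region the ratio of the TPT1 peaks was 1.09 in place of 2.23. The upstream ARPC3 peak spans 292 bases with its gap, against 241 in its blocks.

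For TMSB4X no ratio within 1 region exists. No paired analysis was possible because WT and NAT10-KO have 1 library each, which also prevents leaving one out. The unknown depth leaves every single value without an interval.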
